A study of Tupaia belangeri with 15 samples.

Results

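The nuclei described here are the retinal astrocytes of the tree shrew (*Tupaia belangeri*; TS), taken from a single-nucleus RNA-seq (snRNA-seq) data set of 15 retinas at 3 stages of life. A nucleus was counted as an astrocyte when the summed unique molecular identifiers (UMIs, the counted RNA molecules) of GFAP and PAX2 reached 2, and when markers of other retinal cell types were absent (RLBP1 of Müller cells, GAD1 and GAD2 of amacrine cells, RBPMS of retinal ganglion cells (RGCs) and ARR3 of cones at 0 UMIs, CA10 of bipolar cells (BCs) at 1 UMI at most). This gave 304 of the 119765 nuclei that passed the limits (over 200 but below 6000 genes, with mitochondrial counts below 5%), or 0.254%. The Infancy, Mature and Senile groups comprised 5 retinas each, all from animals described as healthy, with no treatment and no engineered allele. Infant and mature animals came from the animal centre of 1 university, whereas the senile animals were bought from another institute, so that in the comparisons with the Senile group stage and source cannot be told apart.

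Astrocytes of the mammalian retina do not arise from the retina itself. They migrate in from the optic nerve head, spread through the nerve fibre layer ahead of the growing vessels, and lie along the axons of RGCs and the superficial blood vessels. They express the transcription factor PAX2 and, with maturation, the intermediate filament GFAP, whereas Müller cells are born in the retina and span its whole depth. Both glial types handle water, potassium and glutamate and release vascular growth signals.

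The 15 libraries held 13429873 to 58734300 UMIs, and the median nucleus of a library had 1461 to 5589 UMIs. The astrocyte nuclei held 804100 UMIs in all, with a median of 1892.5 UMIs and 1026 genes per nucleus. The labels name Cell Ranger 5.0.1 for 7 retinas (Infancy 1 to 3, Mature 1 and 2, Senile 1 and 2) and 7.0.1 for the other 8, whose nuclei were deeper in infancy and maturity. Of 117976 distinct barcodes, 1768 occurred in more than 1 library, at most 29 per pair of libraries, and 6 astrocyte barcodes recurred in another library, none of them as an astrocyte in both. Doublet scores marked 16 of the 304 astrocyte nuclei, which were kept, and both astrocyte nuclei of Mature 4 were among them.

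Astrocyte nuclei were rare at every stage. Infancy retinas held 21, 44, 25, 34 and 17 of them (replicates 1 to 5), Mature retinas 34, 24, 18, 2 and 10, and Senile retinas 20, 9, 11, 20 and 15. As a share of the nuclei that passed, this was 0.330% ± 0.108 in infancy, 0.225% ± 0.140 in maturity and, among senile retinas, 0.206% ± 0.0678 (SD over 5 retinas per stage). Infancy 2 had the highest share, 0.493% (95% exact binomial interval 0.358 to 0.661), and Mature 4 the lowest, 0.0211% (0.00255 to 0.0761), and the 3 stages overlapped. These intervals cover counting error only. Without the exclusions by other markers, Mature 3 (1.15%) and Infancy 4 (1.04%) had the highest shares, and Infancy 2 had 0.683%. The exclusions had removed 86 nuclei in Mature 3, 57 in Infancy 4 and 17 in Infancy 2.

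The senile share was 0.124 percentage points below that of infancy, a difference that did not pass (two-sided exact permutation p = 0.0714, adjusted over 3 pairs p = 0.214, smallest p possible 0.00794). Mature and infant retinas differed by -0.105 points (exact permutation p = 0.198, adjusted p = 0.298), which became -0.0542 points without Mature 4, -0.0643 without Infancy 2, -0.00680 with thinning to 1000 UMIs and -0.0213 without the exclusions by other markers, and senile and mature retinas by -0.0191 points (exact permutation p = 0.802), a difference that turned to 0.0281 points without Mature 1 and 0.00213 without Senile 2. Among the retinas with Cell Ranger 5.0.1 the stage means were 0.340%, 0.333% and 0.192% from infancy to the senile stage, and among those with 7.0.1 they were 0.314%, 0.152% and 0.214%. With nuclei thinned to 1000 UMIs, and shallower nuclei left out, the senile minus infancy difference shrank to -0.0310 points (exact permutation p = 0.524). Without the exclusions by other markers it was -0.0896 points (exact permutation p = 0.587). Senile 5 and Infancy 4 were checked apart: they held 15 astrocyte nuclei (0.157%) and 34 (0.387%), and without both retinas the senile minus infancy difference was -0.0977 points (exact permutation p = 0.257).

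**Figure D1:**
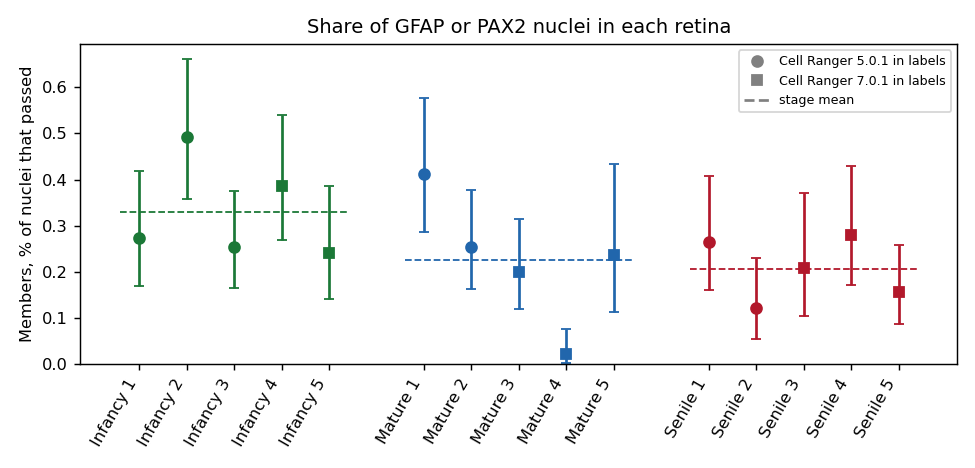
Share of astrocyte nuclei (GFAP or PAX2 nuclei) among the nuclei that passed in each retina, in percent, with 95% exact binomial intervals as bars, the stage mean as a dashed line and the Cell Ranger version of the labels as the symbol. Mature 4 sits lowest at 0.0211% and Infancy 2 highest at 0.493%, and the stages overlap.

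PAX2, more than GFAP, identified these nuclei. Of the 304, 192 had UMIs of PAX2 only, 90 of both genes and 22 of GFAP only. The next values follow from the rule and are given as a description. PAX2 (TSDBGID.8647) was detected in 95.7% of infant, 94.3% of mature and 85.3% of senile astrocyte nuclei, and GFAP (TSDBGID.9779) in 27.7%, 36.4% and 54.7%.

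Levels are given as CPM, the share of a gene among all UMIs pooled from 1 class in 1 retina, on the usual scale of that unit. GFAP was at 213, 136, 362, 103 and 145 CPM in Infancy 1 to 5, at 128, 359, 315, 176 and 173 CPM in Mature 1 to 5, and at 371, 715, 301, 457 and 496 CPM in Senile 1 to 5, where Mature 4 and Senile 2 rest on only 2 and 9 nuclei. The senile retinas lay high, but Infancy 3, Mature 2 and Mature 3 overlapped them. PAX2 ranged from 633 to 1483 CPM over the 15 retinas with all 3 stages interleaved. In Müller cells, chosen here by 2 or more RLBP1 UMIs and no PAX2, GFAP stayed between 0 and 17.5 CPM at every stage.

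**Figure D2:**
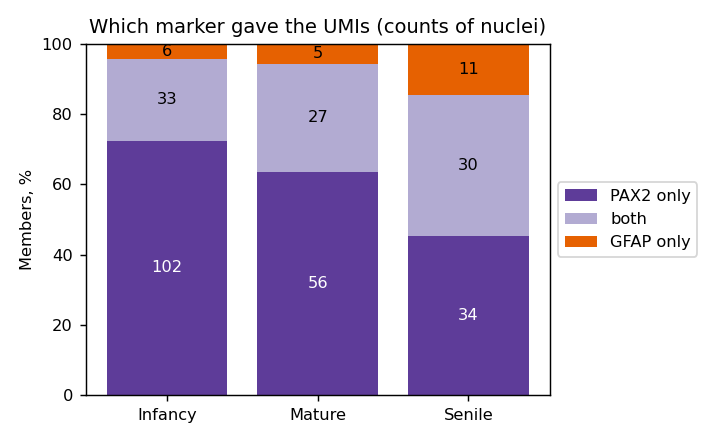
Share of the astrocyte nuclei of each stage, in percent, with UMIs of PAX2 only, of both markers or of GFAP only, with the number of nuclei in each segment. Nuclei with PAX2 only made up 102 of 141 in infancy, 56 of 88 in maturity and 34 of 75 in the senile stage.

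The 22 nuclei chosen by GFAP alone looked less uniform than the rest. SLC14A1, a urea transporter and one of the genes by which the study named its astrocytes, had a UMI in 54.5% of them, against 98.96% of the nuclei with PAX2 only and 98.9% of those with both. NTRK2, the receptor of the neurotrophin BDNF, had a UMI in 45.5%, 84.9% and 90.0%. The GFAP-only nuclei made up 6 of 141 astrocyte nuclei in infancy, 5 of 88 in maturity and 11 of 75 in the senile stage.

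At the edge of the rule, 149 nuclei had exactly 2 UMIs of GFAP and PAX2, and 95.3% of these had a UMI of SLC14A1 and 79.9% one of NTRK2. Just outside, 326 nuclei had 1 UMI and met all other conditions, with SLC14A1 in 72.4% and NTRK2 in 70.6%. Neither GFAP nor PAX2 was found in 30484 nuclei that met all other conditions. SLC14A1 had a UMI in 2.90% of them and NTRK2 in 35.2%. A further 391 nuclei had 2 or more UMIs of GFAP and PAX2 but were left out by another marker, most often ARR3 (212 nuclei) or CA10 (189), then RLBP1 (113) and RBPMS (65), with some nuclei counted more than once. GAD1 and GAD2 removed no nucleus, and GAD2 had 0 UMIs in the whole data set.

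The label was next checked on markers that the rule had not used. The study had itself chosen SLC14A1, SPARCL1, AQP4 and NTRK2 as astrocyte markers on these retinas, so they are not independent of its naming. For each nucleus of 1000 or more UMIs the chance of a UMI after thinning to 1000 UMIs was calculated, and shallower nuclei were left out. The mean of these chances, given as the share of astrocyte nuclei with a UMI, was then set against cones, a neuronal class. This was done in the 13 retinas with 10 or more astrocyte nuclei of that depth. SLC14A1 was found in 90.7% ± 8.01 (SD) of astrocyte nuclei and 0.449% of cones. NTRK2 was found in 62.6% ± 12.4 and 5.06%, and AQP4, the water channel of glial endfeet, in 22.7% ± 8.39 and 0.464%. SPARCL1, a secreted protein that promotes synapse formation, was found in 47.5% ± 26.9 and 3.62%. Each of these 4 genes was higher in astrocyte nuclei in 13 of 13 retinas (two-sided exact sign-flip permutation p = 0.000244, the smallest possible, adjusted over 8 genes p = 0.000391).

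Among the other markers checked in this way, SLC1A2, GJA1 and ALDH1L1 were rare in astrocyte nuclei. SLC1A2, the main glutamate transporter of brain astrocytes, was found in 0.416% of astrocyte nuclei and 3.28% of cones and was lower in 13 of 13 retinas, with 2.21% in Müller cells, so cones do not give a free RNA level for it (exact permutation p = 0.000244, adjusted p = 0.000391). GJA1, a gap junction protein of brain astrocytes, did not pass (0.389% against 0.0424%, exact permutation p = 0.0625, adjusted p = 0.0833). With only 857 UMIs in the whole data set, GJA1 was scarce in each class compared, so a lack of it in astrocytes cannot be read from this. ALDH1L1, a folate enzyme, did not pass either (0.837% against 0.14996%, exact permutation p = 0.250, adjusted p = 0.286), although it was found in 7.37% ± 3.26 of Müller cells. S100B, a calcium-binding protein, had 0 UMIs in the whole data set and could not be read in any class. Without thinning, at a median of 1892.5 UMIs, SLC14A1 had a UMI in 95.7% of astrocyte nuclei, NTRK2 in 83.6%, SPARCL1 in 74.3% and AQP4 in 44.1%, while cones had one of SLC14A1 in 1.41%, of NTRK2 in 13.99%, of SPARCL1 in 11.3% and of AQP4 in 1.67%. Without thinning SPARCL1 was higher in 12 of 13 retinas, with 10.0% in Senile 4.

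**Figure D3:**
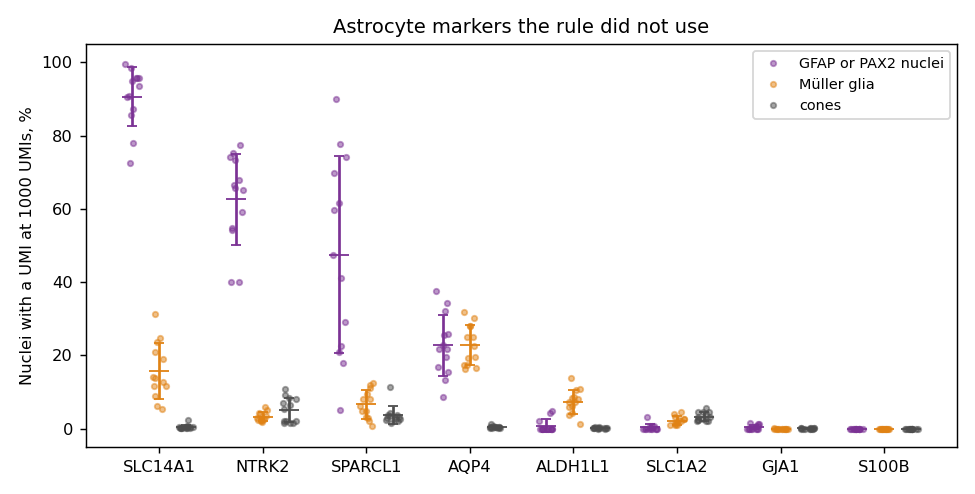
Expected share of nuclei with a UMI of 8 astrocyte markers not used by the rule, in percent, after thinning to 1000 UMIs without the shallower nuclei. There is 1 point per retina (13 retinas), with bars for the mean ± SD in astrocyte nuclei (GFAP or PAX2 nuclei), Müller cells and cones. SLC14A1 and NTRK2 separate the astrocyte nuclei from both other classes, SPARCL1 does so in most retinas but not in Senile 4 (5.07% against 4.86% in Müller cells), AQP4 separates both glial classes from cones, and the 4 markers on the right stay near 0 in astrocyte nuclei, of which S100B had no UMI in any nucleus.

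SPARCL1 moved with the Cell Ranger version of the labels. In the retinas with 5.0.1 it ran from 1155 to 2669 CPM in astrocyte nuclei, and in those with 7.0.1 from 53.7 to 835 CPM, over the retinas with 10 or more astrocyte nuclei. In all other nuclei of these retinas it ran from 133 to 320 CPM and from 26.0 to 173 CPM, with Senile 3 overlapping. The part of the version in SPARCL1 was not tested, since the version entered the stage comparisons only as a covariate. By a picture in the study, the sex of the animals followed nearly the same split, so sex and version can hardly be told apart. Each version also covers its own run of sample numbers in the deposit. Anything else that differed between those runs cannot be told apart from the version.

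Lists of markers of other cell types were summed and averaged over the 13 retinas, and set beside all other nuclei. The genes of the rule were left out of the sums, but since nuclei with ARR3, RBPMS or more than 1 UMI of CA10 had been removed, the low cone, BC and RGC sums are in part set by the choice of nuclei and are given as a description. The neuronal lists lay lower in astrocyte nuclei, with cone markers at 95.4 against 705 CPM, rod markers at 28.4 against 198, BC markers at 12.6 against 247, RGC markers at 60.0 against 184, horizontal cell markers at 45.3 against 177 and amacrine markers at 269 against 604 CPM, of which 165 CPM in astrocyte nuclei was PAX6. Microglial markers were at 14.6 against 40.3 CPM, with AIF1, CSF1R, CX3CR1 and INPP5D at 0, and oligodendrocyte markers at 27.5 against 143 CPM, with 5 of 8 genes at 0, MOG, MOBP, MAG and OPALIN among them.

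Other lists lay near or above the level of all other nuclei. The Müller list without RLBP1 was at 267 against 270.1 CPM (3075 CPM in Müller cells), the vascular list at 78.8 against 70.6 CPM, and the pigment cell list at 257 against 135 CPM, of which 241 CPM in astrocyte nuclei was MITF. The oligodendrocyte precursor list was at 24.0 against 20.6 CPM and reached 153 CPM in 1 senile retina. Of its genes, PDGFRA was at 0 and VCAN, a matrix proteoglycan, was higher than in all other nuclei (log2 fold change 1.66, edgeR adjusted p = 0.0214, higher in 3 of 13 retinas). CLDN5, a tight junction protein of endothelium in the vascular list, was higher too (2.95, edgeR adjusted p = 7.86e-06, 12 UMIs). The part of these cell types in the results was not tested.

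The other macroglial class compared was the Müller cells, of which 2681 nuclei were chosen. Summed counts of both classes in the same 13 retinas were compared with edgeR's quasi-likelihood test with Benjamini-Hochberg adjustment, and an adjusted p below 0.05 counted as a call. Of 2508 genes tested, 525 were higher in astrocytes (20.9%) and 565 lower (22.5%), so 43.5% were called. Counts of called genes in the lists below are to be read beside these shares. Since 1 class was chosen for PAX2 or GFAP without RLBP1 and the other for RLBP1 without PAX2, such genes were left out of the test, and genes that go with these markers were selected along with them.

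Several transporters of ions and urea were higher in astrocytes than in Müller cells. Of 6 genes tested in the list of water, potassium and gap junction genes, 4 were higher and none lower, with a median log2 difference of 2.34 against 0.03 over all genes tested. SLC14A1 (TSDBGID.7751) ran from 2318 to 6638 CPM over the 13 retinas with a median of 3815 CPM, and from 55.9 to 429 CPM in Müller cells with a median of 159.8 CPM. The classes did not overlap in any retina (log2 fold change 4.62, SE 0.26, edgeR adjusted p = 4.35e-12).

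SLC4A4, a sodium bicarbonate cotransporter, averaged 2605 against 231 CPM (log2 fold change 3.70), and KCNJ10, the inward rectifier that clears potassium, 180.3 against 97.8 CPM (0.99, higher in 11 of 13 retinas, edgeR adjusted p = 0.000331). In the astrocyte identity list 3 of 8 tested genes were higher and 3 lower (median 0.12). AQP4 did not pass. It averaged 266 CPM ± 123 in astrocytes and 248 ± 63.8 in Müller cells (log2 fold change 0.22, SE 0.15, edgeR adjusted p = 0.271). VIM, the filament protein vimentin of both glia, was at 181 and 197 CPM (log2 fold change 0.02, SE 0.22, edgeR adjusted p = 0.952).

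The transcription factor PAX8 (TSDBGID.7033), a relative of PAX2, was among the most different genes. It stood at 293, 284, 190, 515 and 714 CPM in the astrocytes of Infancy 1 to 5, at 383, 487, 530 and 770 CPM in Mature 1, 2, 3 and 5, and at 371, 535, 349 and 420 CPM in Senile 1, 3, 4 and 5. In Müller cells it was between 0 and 2.89 CPM in the same retinas, so that no retina overlapped (log2 fold change 8.36, SE 0.28, edgeR adjusted p = 2.89e-15). Whether reads of PAX2 and PAX8 were told apart was not tested.

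By the naming rule (the largest differences among called genes with the same sign in all 13 retinas and 50 CPM or more in the higher class), up to 12 genes were taken in each direction, out of 168 higher and 358 lower that met it. Besides PAX8, the higher ones included DNAH5, an axonemal dynein heavy chain (634 against 2.32 CPM, log2 fold change 8.16), SEMA3C, a secreted guidance cue (472 against 5.23 CPM, 6.99), and LMO3, a LIM-domain transcription cofactor (303 against 2.41 CPM, 6.87). DAPK2, FHDC1 and TRMT9B followed with log2 fold changes of 5.503, 5.82 and 5.25. Others were the noncoding feature LINC-SUCLG1-5 (8.49) and the numbered features TSORFli851, PRKAR2Bli1 and HS3ST3A1li1 (5.83, 5.17 and 5.04), whose reads may be shared with a copy.

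Genes lower in astrocytes were led by KDR (TSDBGID.27315), a receptor of VEGFA. It had 1 UMI in all astrocyte nuclei of the 13 retinas, against 399 to 657 CPM in their Müller cells. From the pooled counts, the Müller level was 381 times that of the astrocytes, with an exact 95% counting interval of 68.3 to 15040.0 times. WIF1, an inhibitor of Wnt ligands and a marker by which the study named Müller cells, averaged 10.9 against 1071 CPM (log2 fold change -6.41, SE 0.33, edgeR adjusted p = 9.45e-13). ADAMTS12, a matrix protease (6.24 against 786 CPM), FREM1, a basement membrane protein (12.03 against 461 CPM), and CHRDL1, a secreted BMP antagonist (13.4 against 383 CPM), were lower in every retina too. The other 7 were STK32C, LINC-SPTLC3-2, CDH23li1, CLRN1, TM4SF1, OTOG and TOX2, with STK32C and LINC-SPTLC3-2 at 2 UMIs each in the astrocytes.

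**Figure D4:**
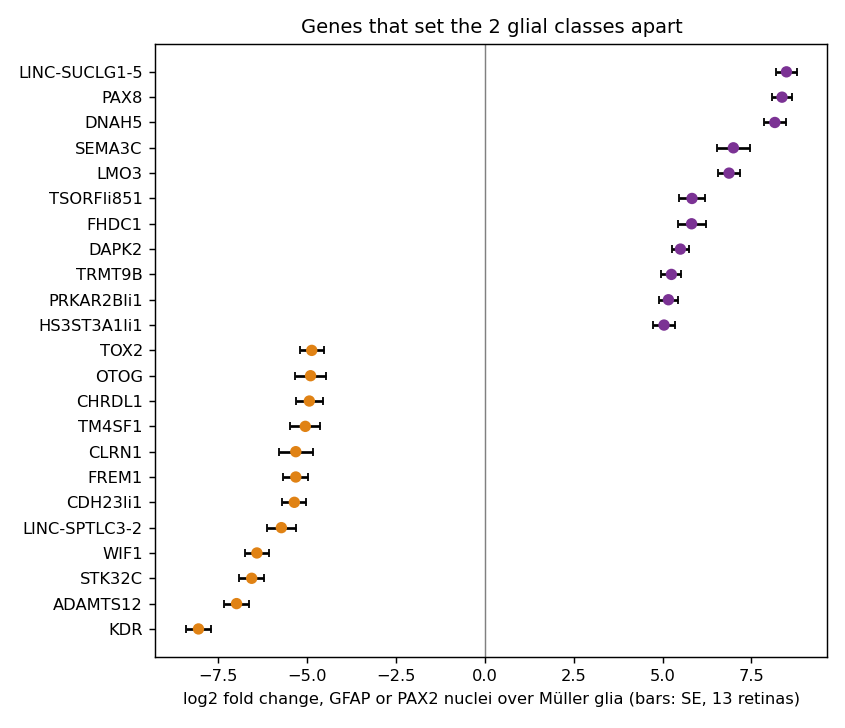
Log2 fold change of 23 genes named between astrocyte nuclei (GFAP or PAX2 nuclei) and Müller cells, positive where astrocytes were higher. Bars give the standard error derived from edgeR's quasi-likelihood test in 13 retinas. The named genes run from -8.05 for KDR to 8.49 for LINC-SUCLG1-5.

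Signals towards vessels and axons split between the classes. In the list of vessel and hypoxia genes 4 of 8 tested were higher and 4 lower (median log2 difference -0.02). Astrocytes held more VEGFA, the vascular growth factor (496 CPM ± 299 against 84.8 ± 53.3, log2 fold change 2.58, edgeR adjusted p = 6.71e-09, higher in 12 of 13 retinas), and more SEMA3A, a repulsive guidance cue (483 against 39.5 CPM, log2 fold change 4.01). VEGFC (0.53, higher in 7 of 13 retinas) and EPAS1 (0.54, in 8 of 13), a hypoxia-inducible factor, were higher by less. The receptors KDR, FLT1 (-3.17) and NRP1 (-0.56) and the factor HIF1A (-0.58) were lower. In Mature 3 VEGFA was at 14.3 CPM in astrocytes and 26.3 CPM in Müller cells, the only retina against the direction.

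Several genes of glutamate handling were lower in astrocytes. Of the 12 genes of the glutamate and GABA list 7 were tested, with 4 lower (57.1%) and 2 higher (28.6%, median -0.96). Over all genes tested 22.5% were lower and 20.9% higher. SLC1A3, the glutamate transporter of retinal glia, averaged 1016 CPM ± 311 in astrocytes against 2191 ± 467 (log2 fold change -0.96, SE 0.11, edgeR adjusted p = 1.17e-07). GLUL, the enzyme that makes glutamine (119 against 315 CPM, -1.31), GLUD1, glutamate dehydrogenase (57.9 against 661 CPM, -3.46), and SLC7A11, the cystine and glutamate exchanger (32.4 against 269 CPM, -3.08), were lower in 13 of 13 retinas. The AMPA receptor subunit GRIA1 was higher (521 CPM ± 169 against 18.9 ± 17.4, log2 fold change 5.04), as was the kainate receptor subunit GRIK4 (0.80, in 8 of 13 retinas).

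Receptors and adhesion molecules also differed. NTRK2 (1110.0 CPM ± 340 against 57.0 ± 22.6, log2 fold change 4.49, edgeR adjusted p = 1.28e-13) and ERBB4, a neuregulin receptor (2302 against 115 CPM, 4.54), led the growth factor list, in which 3 of 8 tested were higher and 4 lower (median -0.53). The synapse list had 11 genes tested, 4 higher and 4 lower (median -0.42). It held MERTK, an engulfment receptor, lower at 92.0 against 314 CPM (-1.72), and MEGF10, another, higher at 301 against 241 CPM (0.45). Of 14 adhesion genes tested, 7 were lower and 1 higher (median -0.55), among them CTNNA2 (-1.76), NCAM2 (-1.77) and CNTN1 (-1.72).

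Of 11 glial transcription factors tested, 4 were higher (SOX5 1.67, TCF7L2 0.88, NFIX 0.63 and NFIA 0.41 in log2 fold change), 2 were lower (PAX6 -1.66 and SOX6 -0.72), and LHX2 (0.12) and RAX (-0.23), of the retinal lineage, did not pass. In the Notch list, 3 of 5 were higher, with NOTCH2 at 0.81, HES1 at 0.93 (higher in 7 of 13 retinas) and MAML2 at 0.59, and MAML3 was lower at -1.36 (median 0.59). FBN1, a microfibril protein, was higher by 4.95 and LAMA1, a laminin, lower by -1.86 in the matrix list (2 of 5 higher, 2 lower, median -0.50). Of 3 phosphodiesterases tested, PDE4B (1.24) and PDE7B (1.59) were higher and PDE1C (-1.59) lower. CP, ceruloplasmin, was lower (-2.20) and was 1 of only 2 reactive genes tested, and B2M, the MHC class I light chain, was higher (2.16, in 11 of 13 retinas). MT3, a metallothionein and the only stress gene tested, was higher by 0.78, and neither of 2 lipid genes passed.

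Against all other nuclei of the same 13 retinas, which are mostly neurons, many genes of the glial lists were higher. Of 16853 genes tested, 2051 were higher in astrocytes (12.2%) and 3178 lower (18.9%), 31.0% in all, with a median log2 difference of -0.27 (edgeR quasi-likelihood test, Benjamini-Hochberg). The balance of directions depended on the scaling, with 2124 higher and 1955 lower by DESeq2 and 1405 higher and 6646 lower with TMM factors from all genes. Among the glial transcription factors, 14 of 20 were higher and 2 lower (median 1.38), with TCF7L2 (614 against 40.7 CPM, log2 fold change 3.96), SOX2 (56.9 against 4.41 CPM, 3.77) and SOX9 (75.3 against 6.77 CPM, 3.47) ahead. Of 9 water and potassium genes, 8 were higher and ATP1B2 was lower (median 3.65), and KCNJ16 (30.6 against 1.06 CPM) stood at 4.97 and was higher in 9 of 13 retinas. The identity list had 9 of 11 higher and SLC1A2 lower.

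EDNRB, an endothelin receptor of optic nerve and retinal astrocytes, was at 107 against 2.23 CPM (log2 fold change 5.64, SE 0.21, edgeR adjusted p = 2.46e-28, higher in 13 of 13 retinas). NR2E1, a nuclear receptor of retinal progenitors and astrocytes, was at 54.4 against 4.26 CPM (3.58), and FN1, the fibronectin of the vessel template, at 142 against 11.1 CPM (3.66), within a vessel list of 7 higher and 4 lower among 15. The matrix list had 11 of 17 higher and 3 lower (median 1.57), led by LAMA2 (4.43), NID1 (4.18) and NID2 (3.13). Of 9 reactive genes, 4 were higher and none lower (median 1.16). They were LCN2 (43.7 against 2.84 CPM, 31 UMIs), CHI3L1, HSPB1 and VIM. LCN2 rested on few retinas, with 133, 173 and 86.2 CPM in Infancy 1 to 3 and 134 CPM in Senile 3, and 0 to 19.3 CPM in the other 9 retinas of the fit.

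HMGA2, a chromatin protein of dividing and embryonic cells, was higher too (58.1 against 2.60 CPM, 4.35, 46 UMIs), 1 of 2 higher among 6 developmental and cell cycle genes. In Müller cells of the same retinas HMGA2 ran from 0 to 47.1 CPM. The remaining lists had, of the genes tested, growth factors 10 of 21 higher and 7 lower, synapse genes 7 of 13 and 5, Notch 4 of 13 and 2, phosphodiesterases 3 of 10 and 3, glutamate genes 4 of 12 and 4, lipid genes 2 of 8 and 2, adhesion genes 5 of 16 and 8, stress genes 2 of 8 and 1, and complement genes 1 of 5 and none. The adhesion molecules PCDH15 (164 against 1966 CPM, -3.77) and CNTN4 (-3.39) were among the lower ones.

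Stage was compared in the astrocytes alone, with the Cell Ranger version as a covariate, over the 13 retinas with 10 or more astrocyte nuclei (Mature 4 and Senile 2 were left out). Their summed counts were 29926 to 135915 UMIs per retina, and 905 genes had enough counts to be tested. Between Senile and Infancy 1 gene was higher and 1 lower by edgeR's adjusted p, 0.221% of those tested, and 90 had an unadjusted p below 0.05. Between Mature and Infancy edgeR called 0 genes (74 with an unadjusted p below 0.05, DESeq2 0), and between Senile and Mature 0 (65, and DESeq2 0).

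MYO1D (TSDBGID.9419), an unconventional myosin, was higher in senile astrocytes. Its level was 0, 0, 34.5, 14.7 and 31.1 CPM in Infancy 1 to 5, and 371, 200.5, 429.9 and 229 CPM in Senile 1, 3, 4 and 5, with 191, 102, 143 and 116 CPM in Mature 1, 2, 3 and 5. Among these 13 retinas, every senile one lay above every mature one and every mature one above every infant one. In the left-out Mature 4 it was at 176 CPM (1 UMI) and in Senile 2 at 286 CPM (4 UMIs). Levels of 2 stages failed to overlap in 4.64% of the tested genes for Senile and Infancy, 3.65% for Mature and Infancy and 2.65% for Senile and Mature. The senile minus infancy difference passed (log2 fold change 3.90, SE 0.55, edgeR adjusted p = 0.00376). The count filter let a gene in when a minimum level was reached in as many retinas as the smallest stage has. MYO1D reached it through its senile retinas, so the call and the lack of overlap are in part set by the filter. The counts were low, 7 UMIs in infancy, 32 in maturity and 46 in the senile stage over the 13 retinas. The mature minus infancy difference of 2.72 (SE 0.57) did not pass (edgeR adjusted p = 0.115).

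Cones held MYO1D at every stage, at 209 CPM ± 29.2 in infancy and 199 ± 25.8 in the senile stage (SD, n = 5 and 4 retinas), and Müller cells at 8.41 to 39.0 CPM over all stages. Cone markers within the astrocyte nuclei ran from 0 to 147 CPM in infancy, 51.2 to 154 in maturity and 80.6 to 229 in the senile stage, so they moved in the same direction. For each cone-marker UMI there were 0.280, 1.45 and 1.84 MYO1D UMIs in the astrocyte nuclei of the 3 stages, against 0.0777, 0.100 and 0.0805 in cones, and in each of the 4 senile retinas astrocytes held more MYO1D than cones. Oligodendrocyte markers ran from 12.4 to 62.1 CPM in infancy and from 0 to 80.6 CPM in the senile stage. The part of cones or oligodendrocytes in the MYO1D difference was not tested.

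GPC6 (TSDBGID.26247), a glypican released by astrocytes that recruits glutamate receptors to synapses, was lower in senile astrocytes. It stood at 665, 482, 534, 456 and 683 CPM in Infancy 1 to 5, at 144, 307, 358 and 385 CPM in Mature 1, 2, 3 and 5, and at 154, 0, 134 and 134 CPM in Senile 1, 3, 4 and 5. Senile and infant retinas did not overlap, and Mature 1 lay within the senile range (log2 fold change -2.48, SE 0.44, edgeR adjusted p = 0.0211). In Müller cells GPC6 ran from 827 to 1242 CPM in infancy and from 343 to 1074 CPM in the senile stage, which overlap. In cones it ran from 116 to 364 CPM in infancy and from 137 to 530 CPM in the senile stage, and Senile 3, 4 and 5 held less in astrocytes than in cones. In the left-out Mature 4, with 2 nuclei, it was at 1234 CPM, and in Senile 2, with 9, at 286 CPM.

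DESeq2 gave MYO1D no adjusted p (log2 fold change 4.04) and called GPC6, and after thinning to equal totals MYO1D had too few counts to be tested. Both calls were lost with the replicate number as a block (edgeR adjusted p = 0.0518 for MYO1D and 0.379 for GPC6), without Senile 4 (0.0588 and 0.100), and without Senile 5 and Infancy 4 together (0.0685 for each), while the log2 fold changes of 4.10, 3.72 and 3.88 for MYO1D and -2.40, -2.55 and -2.81 for GPC6 kept their direction. With 3 or more UMIs of GFAP and PAX2 required the adjusted p was 0.193 and 0.417, and with 20 or more nuclei per retina 0.269 and 0.282, both over 8 retinas. GPC6 was also lost without Infancy 5 (0.0837), without Senile 5 (0.0536) and over all 15 retinas (0.0743, a fit added after the data were seen). Over all settings with a value, the log2 fold change ran from 3.55 to 4.47 for MYO1D and from -2.95 to -1.95 for GPC6.

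PDE4B (TSDBGID.25181), which degrades cyclic AMP, was chosen with earlier results of these data known. It stood at 692, 346, 603, 1059 and 849 CPM in Infancy 1 to 5, at 144, 461, 659 and 327 CPM in Mature 1, 2, 3 and 5, and at 278, 167, 296 and 382 CPM in Senile 1, 3, 4 and 5. Infancy 2 lay within the senile range, and the difference did not pass (log2 fold change -1.59, SE 0.39, edgeR adjusted p = 0.145). DESeq2, counts without the low-count filter and counts thinned to equal totals put it past the threshold (adjusted p = 0.0294, 0.000506 and 0.0494). PDE7B differed by -1.51 (SE 0.37, edgeR adjusted p = 0.145).

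**Figure D5:**
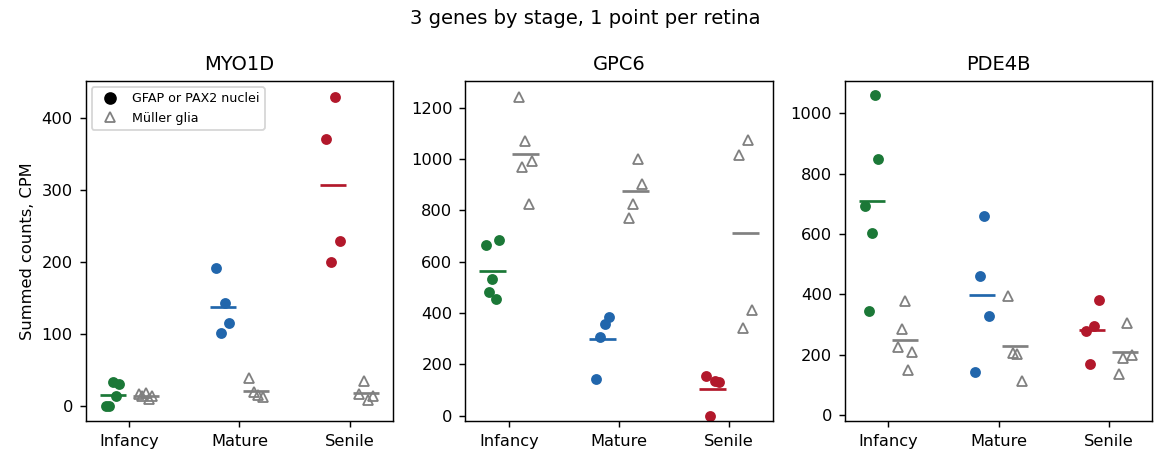
Level of MYO1D, GPC6 and PDE4B in CPM, by stage, with 1 filled point per retina for the astrocyte nuclei (GFAP or PAX2 nuclei), 1 open triangle for the Müller cells of the same retina and a line for the mean. In MYO1D the stages separate in astrocytes and stay at 8.41 to 39.0 CPM in Müller cells, GPC6 falls from a mean of 564 to 106 CPM in astrocytes, and PDE4B overlaps between stages.

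The gene lists gave few calls by stage. GPC6 was the only called member of the synapse list (1 of 7 tested), and no tested member of the other lists was called between any pair of stages. Between Senile and Infancy the medians were -0.03 over 7 identity genes, -0.03 over 6 water and potassium genes, 0.06 over 4 glutamate genes, -0.07 over 4 vessel genes, 0.04 over 7 transcription factors, -0.27 over 7 synapse genes, -0.12 over 4 growth factor genes, -0.04 over 3 matrix genes, 0.22 over 2 Notch genes, -0.64 over 4 phosphodiesterases and -0.20 over 14 adhesion genes, beside 0.01 over all 905 genes. SLC14A1 differed by 0.35 (SE 0.26), AQP4 by -0.03 (SE 0.48), VIM by -0.37 (SE 0.52) and NTRK2 by -0.85 (SE 0.27, edgeR adjusted p = 0.263). The reactive, stress and complement lists had 1 gene tested each, and no lipid or developmental gene reached the counts needed for the test.

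Whether stage acted differently on the 2 glial types was tested by the interaction of class and stage. Of 4279 genes, edgeR called 1 (0.0234%), with 272 at an unadjusted p below 0.05. CCDC3 (TSDBGID.12753), a secreted coiled-coil protein, had an interaction of -4.06 (SE 0.67, edgeR adjusted p = 0.0258). The call was lost without Infancy 3 (edgeR adjusted p = 0.0606), Infancy 4 (0.176) or Senile 3 (0.0587) and with 3 or more UMIs of GFAP and PAX2 required (0.0593). In Müller cells it was at 29.7, 32.6, 27.0, 14.5 and 40.6 CPM in Infancy 1 to 5 and at 113, 251.8, 249.5 and 241 CPM in Senile 1, 3, 4 and 5, and in astrocytes at 159.7, 148, 155, 243 and 62.1 CPM and at 30.9, 100.2, 134 and 57.2 CPM. The Müller levels did not overlap between the stages, whereas the astrocyte levels did. The senile astrocyte levels of CCDC3 rest on few UMIs, since those retinas held only 29926 to 52414 astrocyte UMIs in all. The interactions of MYO1D (3.46, edgeR adjusted p = 0.162) and GPC6 (-2.002, edgeR adjusted p = 0.115) did not pass, so their stage differences were not shown to be particular to astrocytes.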

How the data were processed

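The authors aligned snRNA-seq reads of 15 TS retinas with Cell Ranger and deposited, per retina, a filtered matrix of raw UMI counts (83605 features, 120437 barcodes). The labels name version 5.0.1 for 7 retinas and 7.0.1 for 8, the file headers differ from this for some, the study's methods name a single version, and counting of introns is not given in the sources used here. Replicates were 1 retina each, and each came from its own animal by the study's description, so p-values measure the spread between these retinas. Of the barcodes 672 failed the limits (631 with too many genes, 4 with too few, 37 by mitochondrial counts, for which only 3 features were named).

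The members and lists were chosen with earlier results of these data known. UMI counts were summed per retina and class in retinas with 10 or more astrocyte nuclei, and were tested with edgeR 4.0.16 (TMM, filterByExpr, quasi-likelihood test, Benjamini-Hochberg adjustment at 0.05; R 4.3.3). Stage fits had the Cell Ranger version as a covariate, and class fits the retina. The SE of an edgeR log2 fold change was its absolute value over the square root of the quasi-likelihood F statistic. Against all other nuclei, whose sums were far larger, TMM factors came from genes with a mean expected count of 5 or more in the smallest library. Müller cells had 2 or more RLBP1 UMIs and cones 2 or more ARR3 UMIs, without the other markers. Shares and detection were tested by exact permutation. Thinned shares of astrocyte nuclei were averaged over 100 draws. Thinned detection was the hypergeometric chance of a UMI at 1000 UMIs (scipy 1.17.1), averaged over nuclei. Scrublet (scanpy 1.11.5) set no usable threshold in some retinas, so the highest scores at 8 per 1000 nuclei for every 1000 nuclei were taken as doublets. Between stages, genes were named when called, not overlapping and at 10 CPM or more (at most 10 per direction), and between classes when called with 1 sign in every retina and at 50 CPM or more (at most 12). The Senile against Infancy, class and class by stage fits were run on simulated counts. Most planted 2-fold changes were missed there, except by the fit against Müller cells. DESeq2 1.42.0, other scaling, no filter, sex in place of the version, other thresholds and left-out retinas were alternatives. Sex is given only in a picture of the study and nearly follows the version. With sex in its place, the Senile against Infancy fit kept its 2 calls. Sequences were not used here. Numbered copies, noncoding features and related genes may share reads. Results for a few genes are not reported here, though they stay in the counts.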

Additional observations from a re-analysis of the deposited data

Results flagged for a closer look

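In GPC6, Senile 3 stood apart at 0 CPM, against 134 to 154 CPM in the other senile retinas of the comparison. It came from 39 groups of values examined, and chance marks about 1 in 20 groups in this way. Senile 3 also had the fewest astrocyte UMIs of the retinas compared, 29926. GPC6 was found in few senile nuclei elsewhere too, in 4 of 20 in Senile 1 and 2 of 20 in Senile 4, against 0 of 11 in Senile 3.

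CCDC3 differed between the glial types in its change from infancy to the senile stage, by -4.06 on the log2 scale. Leaving out single retinas moved this from -4.97 to -3.01, and the call was lost without Infancy 3 (edgeR adjusted p = 0.0606), Infancy 4 (0.176) or Senile 3 (0.0587), and with 3 or more UMIs of GFAP and PAX2 required (0.0593).

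Outside the astrocyte nuclei, 391 nuclei had 2 or more UMIs of GFAP and PAX2 beside a marker of another type. SLC14A1 had a UMI in 91.0% of them, NTRK2 in 81.8% and WIF1 in 10.5%. Among the 24382 nuclei with 2 or more ARR3 UMIs, 76 (0.312%) had 2 or more UMIs of GFAP and PAX2. What these nuclei are was not tested.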

How the results depend on the processing

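Between Senile and Infancy, 2 calls became 5 with DESeq2 (1 shared), 50 without the low-count filter, 0 with the replicate block, 0 with 3 or more UMIs, 5 without doublets, 0 with 20 nuclei per retina, 4 after thinning to equal totals (1 shared), 0 without Senile 5 and Infancy 4, and 1 over all 15 retinas, an alternative chosen after seeing the data. Leaving out single retinas gave 0 (without Senile 4) to 6 (without Senile 1), and 1 without Infancy 5 or Senile 5. Between Mature and Infancy, 0 calls became 23 without the filter, 9 with 3 or more UMIs, 1 with 20 nuclei and 2 over all retinas (0 to 1 without single retinas, 1 without Senile 1 or Senile 3). Between Senile and Mature they became 13 without the filter (0 to 1, 1 without Mature 3). The class by stage test gave 2 with DESeq2, 21 without the filter, 9 with 3 or more UMIs and 10 without doublets (0 to 5, with 5 without Senile 1 and 0 without Infancy 3, Infancy 4 or Senile 3). Against Müller cells 3942 genes were called without the filter, of 39426 tested, and against all other nuclei 3437 with 3 or more UMIs and 8051 with TMM over all genes, also added later. Without doublets the calls were 1072 against Müller cells (1090 with them) and 5823 against all other nuclei (5229). The cause was not tested.

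The senile minus mature share turned to 0.0281 points without Mature 1 and 0.00213 without Senile 2 (range -0.06998 to 0.0281). Replicate numbers did not pair the retinas, since same-numbered retinas correlated from -0.13 to 0.30, so the block shares only a number, and it gave 0 calls in all 3 stage comparisons. The differences in share between the other stages kept their direction but shrank with thinning to 1000 UMIs, to -0.00680 points for Mature minus Infancy and -0.0310 for Senile minus Infancy. For single genes, 548 settings kept the direction and the side of the threshold, whereas 17 lost a call, 3 gained one and 1 gave no adjusted p. Most of the settings that kept it were of genes compared between classes, which lost no call. All lost calls were of GPC6 (8 settings lost, 18 kept), MYO1D (5 and 19) and CCDC3 (4 and 13). The stage comparisons rest on 29926 to 135915 astrocyte UMIs per retina.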

Other observations

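Some Müller cells also held SLC14A1, in 35.5% of infant, 41.9% of mature and 15.6% of senile nuclei, against 97.9%, 95.5% and 92.0% of astrocyte nuclei and 1.40%, 1.55% and 1.28% of cones. These shares pool the nuclei of all retinas of a stage without thinning. By retina the Müller share ran from 28.8% to 38.0% in infancy, 19.0% to 47.3% in maturity and 0% to 19.7% in the senile stage. The 0% was in Senile 2, with a median of 807 UMIs per Müller nucleus. The class by stage interaction of SLC14A1 did not pass (1.54, edgeR adjusted p = 0.502).

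APOE, a lipid carrier of astrocytes, had 5 UMIs among 467736966 in the whole data set, so its level in these nuclei could not be read. HMGA2 was found in 12 of 13 retinas of the comparison, from 14.3 CPM in Mature 3 to 134 CPM in Senile 4, and at 0 in Infancy 1, with 1 to 14 UMIs in each of the 12.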
